A study of Mus musculus with 15 samples.

Results

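The genes described here encode the ATP-binding cassette (ABC) proteins of families A to G, the organic anion transporting polypeptides (Slco), the bile acid carriers (Slc10a) and the organic ion transporters (Slc22a) of the mouse. They were taken by name alone, as every gene whose symbol starts with Abc, 1 of the letters a to g and a digit, or with Slco, Slc10a or Slc22a. Of the 32301 genes on the array 91 were members, namely 49 Abc, 12 Slco, 6 Slc10a and 24 Slc22a genes. Only 18217 of the 32301 had a gene symbol, and each accession without a symbol was counted as a gene of its own. The shares of all genes given below include these accessions, while every member is a named gene. Each was read on its brightest probe. Another 8 genes with such names, among them Slco1a1 and Slc10a5, had no matched probe and were not analysed here.

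Hepatocytes take bile acids, drugs and other organic ions from the blood with Slc10a1, Slco and Slc22a carriers in the sinusoidal membrane. They pass them into bile through ABC pumps of the canalicular membrane, with Abcb11 for bile salts, Abcc2 for conjugated anions, Abcb4 for phosphatidylcholine and Abcg5 with Abcg8 for sterols, and can return them to blood through basolateral Abcc pumps. Bile acid uptake and bile flow are known to fall in the inflamed liver. Other ABC proteins move sterols, peptides, heme precursors or fatty acids within cells, and in the heart Abcc8 and Abcc9 are the sulfonylurea receptor subunits of ATP-sensitive potassium channels.

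The study set mouse allografts against control tissue, with 3 single-colour arrays for each of 5 groups. For the cardiac allografts, the donor heart of a C57BL/10 mouse (B10, H-2b) was placed in the abdomen of a sex-matched CBA recipient (H-2k) and taken on postoperative day 5 (POD5). For the hepatic allografts, a B10.BR liver (H-2k) replaced that of a B10.D2 recipient (H-2d), and grafts were taken at POD5 or POD8. The labels call the controls normal heart or liver, while the study's results speak of isografts, and their strain is not given in the sources used here. Male mice of these strains were bought for the study, and no immunosuppressive treatment is named. The study speaks of several mice at each time point, but the labels tie no array to an animal, so the P-values measure the spread between these arrays.

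Array brightness moved with the groups. The 75th percentile of the processed intensity lay between 92.1 and 226 on the hepatic controls, 339 and 478 in POD5 and 385 and 454 in POD8 hepatic allografts, 1025 and 1251 on the cardiac controls, and 395 and 712 in cardiac allografts. No spot was saturated. The arrays of the cardiac groups lay on separate slides, so slide and group cannot be told apart there. No slide held both hepatic POD5 grafts and hepatic controls, so slide and group cannot be told apart for that comparison either. On 1 slide lay 2 hepatic controls and 2 POD8 grafts. Hepatocyte markers were present on all hepatic arrays (7 of 7 well above background) and 6 of 6 cardiomyocyte markers on all cardiac arrays. In whole tissue, fewer cells of a type and less RNA per cell cannot be told apart.

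Of the 91 members, 67 were well above background on all arrays of at least 1 hepatic group and 61 on all arrays of a cardiac group. Both conditions held for 55, the hepatic condition alone for 12 and the cardiac one alone for 6. The other 18 met neither, and 12 were above background on none of the 15 arrays. Levels below are log2 of the normalized intensity, which cannot be compared between probes, and differences are log2 differences with their SE. A gene was called when its adjusted P-value (limma, Benjamini-Hochberg over all probes) was below 0.05.

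Among the hepatic allografts at POD5, 6 members were called higher, a share of 6.59% against 5.78% of all genes tested, and 12 were called lower, 13.2% against 4.21%. At POD8, 7 members were higher (7.69%, against 4.97% of all genes) and 7 were lower (7.69%, against 2.96%). The median difference of the members was -0.28 at POD5, where that of all genes was -0.07, and -0.21 at POD8, where that of all genes was -0.10. Groups that did not overlap were found for 35 members at POD5, or 38.5% against 31.8% of all genes, and for 29 at POD8, or 31.9% against 31.7%. The POD5 and POD8 grafts were compared with the same 3 controls, so the 2 sets of calls are not independent. Without POD5 array 1, 2 or 3, or control array 2, the lower calls at POD5 numbered 4, 6, 4 and 6. Without POD8 array 1, 2 or 3 those at POD8 numbered 1 each time, and without control array 1 or 2 they numbered 4 and 3. With slide as a random block, the POD5 calls of Abca5, Abcb6, Abcc6, Abcd3, Slc22a5, Slc22a23, Slc22a28 and Slc22a30 were lost. As no slide held both POD5 grafts and controls, this block cannot free the remaining POD5 calls of slide. With slide as a fixed block, the POD8 calls of Abca5, Abcc5, Abcg3, Slc22a5, Slc22a7, Slc22a23 and Slco1b2 were lost, and leaving out any 1 of the POD8 arrays ended those of Abca2, Abcc4, Abcg3, Slc22a5, Slc22a7, Slc22a23 and Slco1b2.

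The direction of these counts was tied to the scaling. When each array was scaled to its 75th percentile instead of quantile normalized, the median of all genes stood at -0.43 at POD5 and -0.53 at POD8, and higher calls made up 22.1% and 16.7% of all genes called, against 57.9% and 62.7% in the quantile normalized data. The members then gave 8 higher and 27 lower calls at POD5, and 8 higher and 25 lower at POD8. All differences are therefore relative to the bulk of genes. None of the members called in the hepatic allografts changed direction under any alternative run.

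Of 6 sinusoidal uptake carriers measured, 2 fell at POD5 and 3 at POD8, with a median difference of -0.51 and -0.59. Among all genes 4.21% and 2.96% were called lower. The largest called fall of any member was that of Slc22a7. This carrier, which exchanges organic anions at the sinusoidal membrane, had levels of 12.22, 12.37 and 12.27 on the control arrays, 8.08, 9.42 and 9.89 at POD5, and 10.33, 9.03 and 10.40 at POD8. All 6 allograft arrays lay below the 3 controls, which differed little among themselves. The difference was -3.16 ± 0.52 at POD5, an 8.91-fold lower level (adjusted P = 0.011, limma), and -2.36 ± 0.52 at POD8, or 5.15-fold lower (adjusted P = 0.035). The POD5 call was kept in 17 of 19 alternatives and the POD8 call in 10 of 21.

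Slco1b2, the liver-specific carrier of bile acids and drugs, had levels of 16.13, 16.02 and 15.77 in controls, 14.99, 15.42 and 15.76 at POD5, and 15.08, 14.82 and 15.19 at POD8. The POD8 arrays lay clearly below the controls, and the highest POD5 array came within rounding of the lowest control. The call was made at POD8 (-0.94 ± 0.21, adjusted P = 0.040, limma), and at POD5 the difference was -0.58 ± 0.21 (adjusted P = 0.14). The POD8 call was kept in 10 of 21 alternatives, and was lost without any 1 of the POD8 arrays and with slide as a fixed block.

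Slco1b2 was the only called uptake carrier with a window in the RefSeq promoter table (GRCm38.p6), and its 250 bases before the start (chr6:141629268-141629517, plus strand) are printed because the motifs of FXR, HNF1 and nuclear receptors at large were searched there on both strands. The inverted repeat of FXR, the bile acid receptor (AGGTCA, any base, TGACCT), and the HNF1 motif (GTTAAT, any base, ATTAAC) had no exact match in this window. Only exact matches over the full motif were counted, which almost no window held, so their absence says little. The letters GTTAAT alone do stand in the window. The core motif AGGTCA of nuclear receptors, which is also part of the inverted repeat, matched once, on the opposite strand, and is in capitals. Slco4a1, which held the largest rise and was added after its values were seen, had windows at 2 starts, and that at chr2:180460728-180460977 (plus strand) held this core motif once. The other window did not hold it.
Slco1b2: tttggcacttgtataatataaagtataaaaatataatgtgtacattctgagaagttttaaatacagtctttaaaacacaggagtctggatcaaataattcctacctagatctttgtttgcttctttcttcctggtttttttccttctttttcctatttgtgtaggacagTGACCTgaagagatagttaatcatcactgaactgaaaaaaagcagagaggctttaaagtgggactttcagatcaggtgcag
Slco4a1: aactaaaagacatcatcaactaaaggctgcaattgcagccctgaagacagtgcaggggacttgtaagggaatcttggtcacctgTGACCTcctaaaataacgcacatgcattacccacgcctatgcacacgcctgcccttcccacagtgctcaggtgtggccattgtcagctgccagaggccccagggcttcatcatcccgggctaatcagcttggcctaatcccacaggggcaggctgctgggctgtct
Of 32851 such windows, 14.0% held the core motif, 0.00609% the inverted repeat and 0.00913% the HNF1 motif. Among the 20 members called in a hepatic comparison, 14 had a window, and 3 of these (Abcb6, Slco1b2 and Slco4a1) held the core motif. Those 3 are genes with the motif in any of their windows, whereas the 14.0% is a share of windows. A match in these letters is a description and not a binding site.

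The carriers Slc10a1, Slco2b1 and Slco1a4 were not called. Slc10a1, the sodium-dependent bile acid carrier, varied widely between arrays of a group, with 11.21, 12.50 and 13.19 in controls, 12.35, 13.22 and 10.14 at POD5, and 12.95, 12.83 and 12.78 at POD8. The 95% interval of its difference spanned -2.25 to 1.46 for POD5 and -1.30 to 2.41 for POD8, so large changes either way could not be told from 0. Slco2b1 differed by -0.43 ± 0.20 and -0.16 ± 0.20, and Slco1a4 by 0.21 ± 0.42 and -0.41 ± 0.42, with overlapping groups.

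None of the 8 canalicular exporters passed the test at POD5 or POD8, and their median difference was -0.18 and -0.14. Abcb11, the bile salt export pump, had levels of 15.75, 15.32 and 15.25 in controls, 15.59, 15.16 and 15.01 at POD5, and 15.39, 15.24 and 15.15 at POD8. These groups overlapped, and the 95% interval of the fold spanned 0.639 to 1.21 for POD5 and 0.644 to 1.22 for POD8. For Abcc2 the interval was 0.811 to 1.85 at POD5 and 0.617 to 1.40 at POD8. Abcg5 differed by -0.02 ± 0.28 and -0.18 ± 0.28, Abcg8 by -0.30 ± 0.39 and -0.03 ± 0.39, and Abcg2, the breast cancer resistance protein, by -0.18 ± 0.21 and 0.05 ± 0.21.

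Abcb4 came closest among them, with 14.65, 14.21 and 14.56 in controls, 14.17, 13.64 and 13.53 at POD5, and 13.72, 13.53 and 13.89 at POD8. Neither allograft group overlapped the controls, but the differences of -0.69 ± 0.21 and -0.76 ± 0.21 had adjusted P-values of 0.083 and 0.071 (limma). The multidrug pumps could not be settled by their probes. For Abcb1b the brightest probe gave -0.64 ± 0.24 at POD5, not called, and another of its 3 probes was called higher at 1.31. Abcb1a was above background on none of the control arrays and on all 3 at POD5. The bound from its POD5 mean was 1.44-fold, but the difference was not called (adjusted P = 0.11, limma), so no minimum rise is set.

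Of the 5 exporters towards the blood, 3 rose in each comparison and 1 fell at POD5, with a median difference of 0.86 at POD5 and 1.11 at POD8. The shares of all genes were 5.78% higher and 4.21% lower at POD5, and 4.97% higher at POD8. Abcc1, which exports glutathione conjugates and leukotrienes, had levels of 5.25, 5.90 and 6.25 in controls, 7.84, 7.79 and 7.85 at POD5, and 7.63, 7.68 and 7.52 at POD8. Every allograft array lay above every control, by a difference of 2.03 ± 0.23 at POD5 (4.08-fold, adjusted P = 0.0029, limma) and 1.81 ± 0.23 at POD8 (3.50-fold, adjusted P = 0.0051). The call was kept in 16 of 19 alternatives at POD5 and in 17 of 21 at POD8, and with normexp background correction the POD5 difference was 1.14.

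Abcc4, an exporter of bile acids and cyclic nucleotides, had levels of 5.08, 5.72 and 6.24 in controls, 7.54, 7.74 and 7.11 at POD5, and 7.01, 7.14 and 7.74 at POD8. The groups were again apart, by 1.78 ± 0.34 (adjusted P = 0.018, limma) and 1.62 ± 0.34 (adjusted P = 0.029). Abcc5, an exporter of cyclic nucleotides and organic anions, rose from 7.17, 6.76 and 6.68 in controls to 7.72, 7.64 and 7.80 at POD5 and to 8.04, 7.87 and 8.02 at POD8. Its differences were 0.86 ± 0.15 (adjusted P = 0.014) and 1.11 ± 0.15 (adjusted P = 0.0061).

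Abcc3, the basolateral pump for glucuronides and bile salts, stayed within 0.06 ± 0.20 below the control mean at POD5 and 0.41 ± 0.20 below it at POD8, neither called. Abcc6, whose loss causes ectopic mineralization, was lower at POD5, with 9.80, 9.15 and 8.99 in controls against 7.96, 8.38 and 7.38, a difference of -1.41 ± 0.30 (adjusted P = 0.026, limma). At POD8 its levels were 8.58, 8.63 and 8.46, also below all controls, and the difference of -0.76 ± 0.30 was not called (adjusted P = 0.17).

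**Figure D1:**
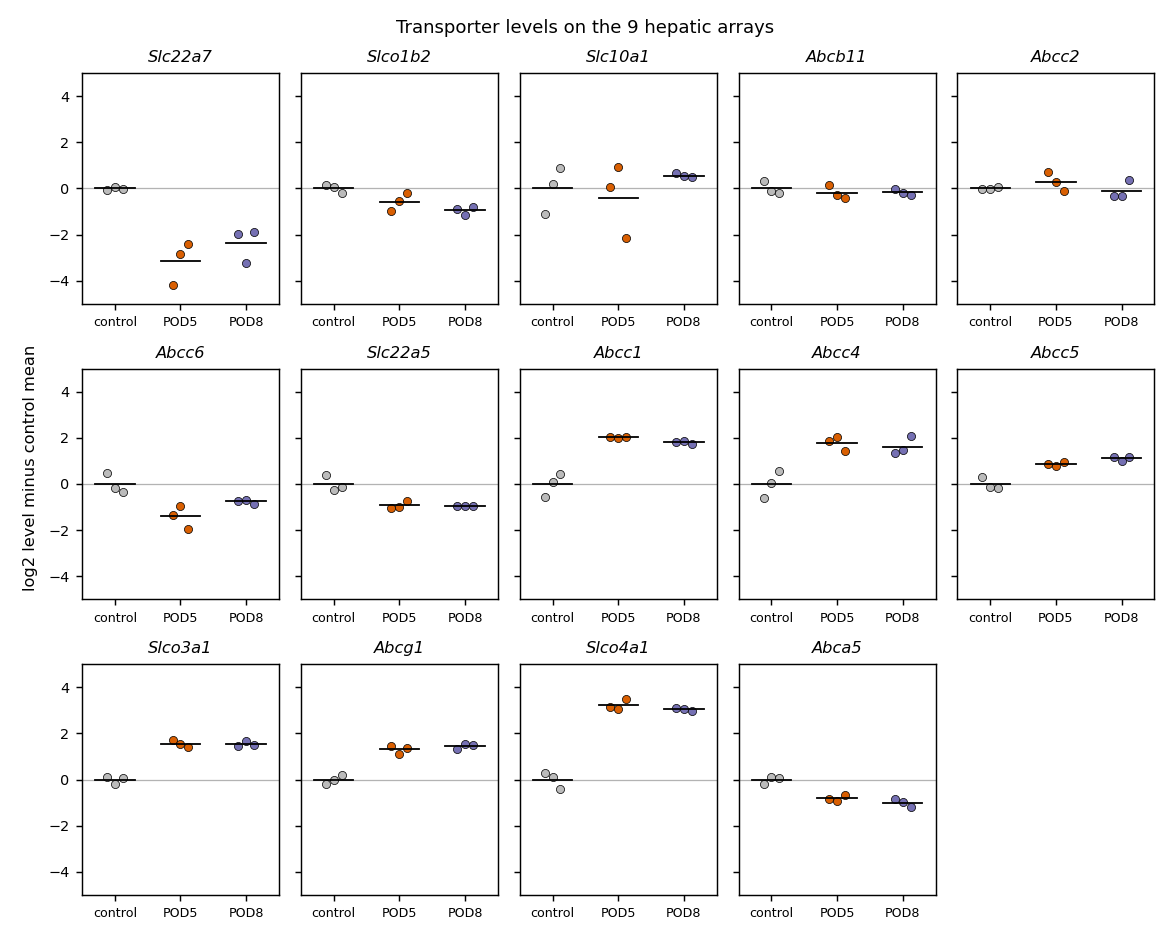
Levels of 14 transporter genes on the 9 hepatic arrays, as log2 level minus the mean of the 3 controls of the same gene (vertical axis), for controls, POD5 and POD8 allografts (horizontal axis). Points are single arrays and lines are group means, and Slco4a1 was not above background on any control array. Slc22a7 lies 3.16 below the control mean at POD5 and Abcc1 2.03 above it, while Slc10a1 scatters and Abcb11 stays near 0.

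The plot of single hepatic arrays shows members that were apart from the controls and members that were not. Abcc6, also an exporter towards the blood, lay below all controls at both times. The uptake carrier Slc22a7 and the exporters Abcc1, Abcc4 and Abcc5 had no allograft array within the range of the controls, and Abcb11, Abcc2 and Slc10a1 did.

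The strongest rise of any member was that of Slco4a1, a carrier of thyroid hormone and other organic anions. It was not above background on any control array (3.22, 3.01 and 2.52) and was on all 6 allograft arrays, with 6.07, 5.97 and 6.42 at POD5 and 6.02, 5.99 and 5.89 at POD8. The level was at least 5.06-fold higher at POD5 (adjusted P = 0.00028, limma) and at least 4.45-fold higher at POD8 (adjusted P = 0.00036). This was the only member whose call was kept in all 19 alternatives at POD5, and with normexp background correction the difference was 1.03. At POD8 the smallest difference among the alternatives was 0.95. Both bounds therefore hold for the main processing only.

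Slco3a1, a prostaglandin and organic anion carrier, rose from 8.41, 8.10 and 8.37 in controls to 10.03, 9.84 and 9.69 at POD5 and 9.76, 9.96 and 9.79 at POD8. The differences were 1.56 ± 0.14 and 1.54 ± 0.14, with adjusted P-values of 0.0011 and 0.0012 (limma). Abcg3, an ABCG gene of rodents, had 2.50, 4.31 and 4.92 in controls, where 2 of 3 arrays were above background, 5.89, 5.66 and 5.53 at POD5 and 6.25, 6.30 and 6.11 at POD8. It was called at POD8 (2.31 ± 0.54, adjusted P = 0.044) and not at POD5 (1.78 ± 0.54, adjusted P = 0.085).

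Of the 11 ABC genes of sterol and phospholipid transport, 1 was higher and 2 were lower in each hepatic comparison, with a median difference of -0.48 at POD5 and -0.33 at POD8. The shares of all genes were 5.78% and 4.97% higher, and 4.21% and 2.96% lower. Abcg1, which exports cholesterol to high-density lipoprotein, rose from 8.44, 8.63 and 8.86 in controls to 10.10, 9.76 and 10.00 at POD5 and 9.97, 10.18 and 10.16 at POD8. Its differences were 1.31 ± 0.15 (adjusted P = 0.0031, limma) and 1.46 ± 0.15 (adjusted P = 0.0021). Abca5 fell from 6.74, 7.05 and 6.99 in controls to 6.09, 5.98 and 6.27 at POD5 and 6.08, 5.96 and 5.72 at POD8, by 0.81 and 1.003 on the log2 scale (adjusted P = 0.017 and 0.0088).

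Abca2, an endosomal sterol transporter, differed by -0.77 ± 0.16 and -0.70 ± 0.16 (adjusted P = 0.025 and 0.042, limma). Abca1, the exporter of cholesterol to apolipoprotein A-I, differed by -0.17 ± 0.18 and -0.36 ± 0.18 without a call. The brightest probe of Abca6 was not called at POD5 (-0.48), and its other probe was called lower (-0.98).

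Within organelles, 3 of 9 ABC genes were lower at POD5 (median -0.43), against 4.21% of all genes. None was called at POD8 (median -0.20). Abcb6, a porphyrin transporter, had 12.29, 11.59 and 11.33 in controls, 10.73, 10.57 and 10.93 at POD5, and 10.77, 10.80 and 10.76 at POD8. The groups were apart both times, and the differences of -0.99 ± 0.24 (adjusted P = 0.042, limma) and -0.96 ± 0.24 (adjusted P = 0.054) fell on the 2 sides of the threshold. Abcb10, a mitochondrial protein of heme synthesis, was -0.74 ± 0.12 at POD5 (adjusted P = 0.0096) and -0.41 ± 0.12 at POD8 (adjusted P = 0.083). Abcd3, the peroxisomal carrier of fatty acids and bile acid precursors, was -0.71 ± 0.15 at POD5 (adjusted P = 0.026), and its other 2 probes gave 0.03 and -0.26 without a call. Abcb9, a lysosomal peptide transporter, was above all controls at both times (1.25 ± 0.36 and 1.17 ± 0.36) and was not called. None of the 4 ABCE and ABCF genes, which bind ribosomes and do not transport, was called.

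Among the carnitine and other Slc22a carriers, Slc22a5, the high-affinity carnitine carrier, fell from 8.64, 8.03 and 8.13 in controls to 7.24, 7.28 and 7.53 at POD5 and 7.30, 7.33 and 7.31 at POD8. The differences were -0.92 ± 0.18 and -0.96 ± 0.18 (adjusted P = 0.019 both times, limma), and the other probe of the gene gave -0.61 and -0.23 without a call. The call was kept in 11 of 19 alternatives at POD5 and 11 of 21 at POD8, and was lost with slide as a random block at POD5, and with slide as a fixed block or without any 1 of the POD8 arrays at POD8. Slc22a23 was lower in both comparisons (-0.80 ± 0.20, adjusted P = 0.048, and -0.84 ± 0.20, adjusted P = 0.049). Slc22a28 (-1.17 ± 0.27, adjusted P = 0.035) and Slc22a30 (-0.95 ± 0.21, adjusted P = 0.029), liver-enriched relatives of the organic anion transporters, were called at POD5, and at POD8 their differences were -0.73 ± 0.27 and -0.35 ± 0.21.

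No member was called between POD8 and POD5 grafts, where 3 genes of all tested were called (0.00929%, limma). At an unadjusted P-value below 0.05 there were 6 members, or 6.59% against 8.05% of all genes, and the groups did not overlap for 21 members, or 23.1% against 20% of all genes. SFC, the fold change statistic of the study, called 1 member lower there and the methods' t-test none.

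**Figure D2:**
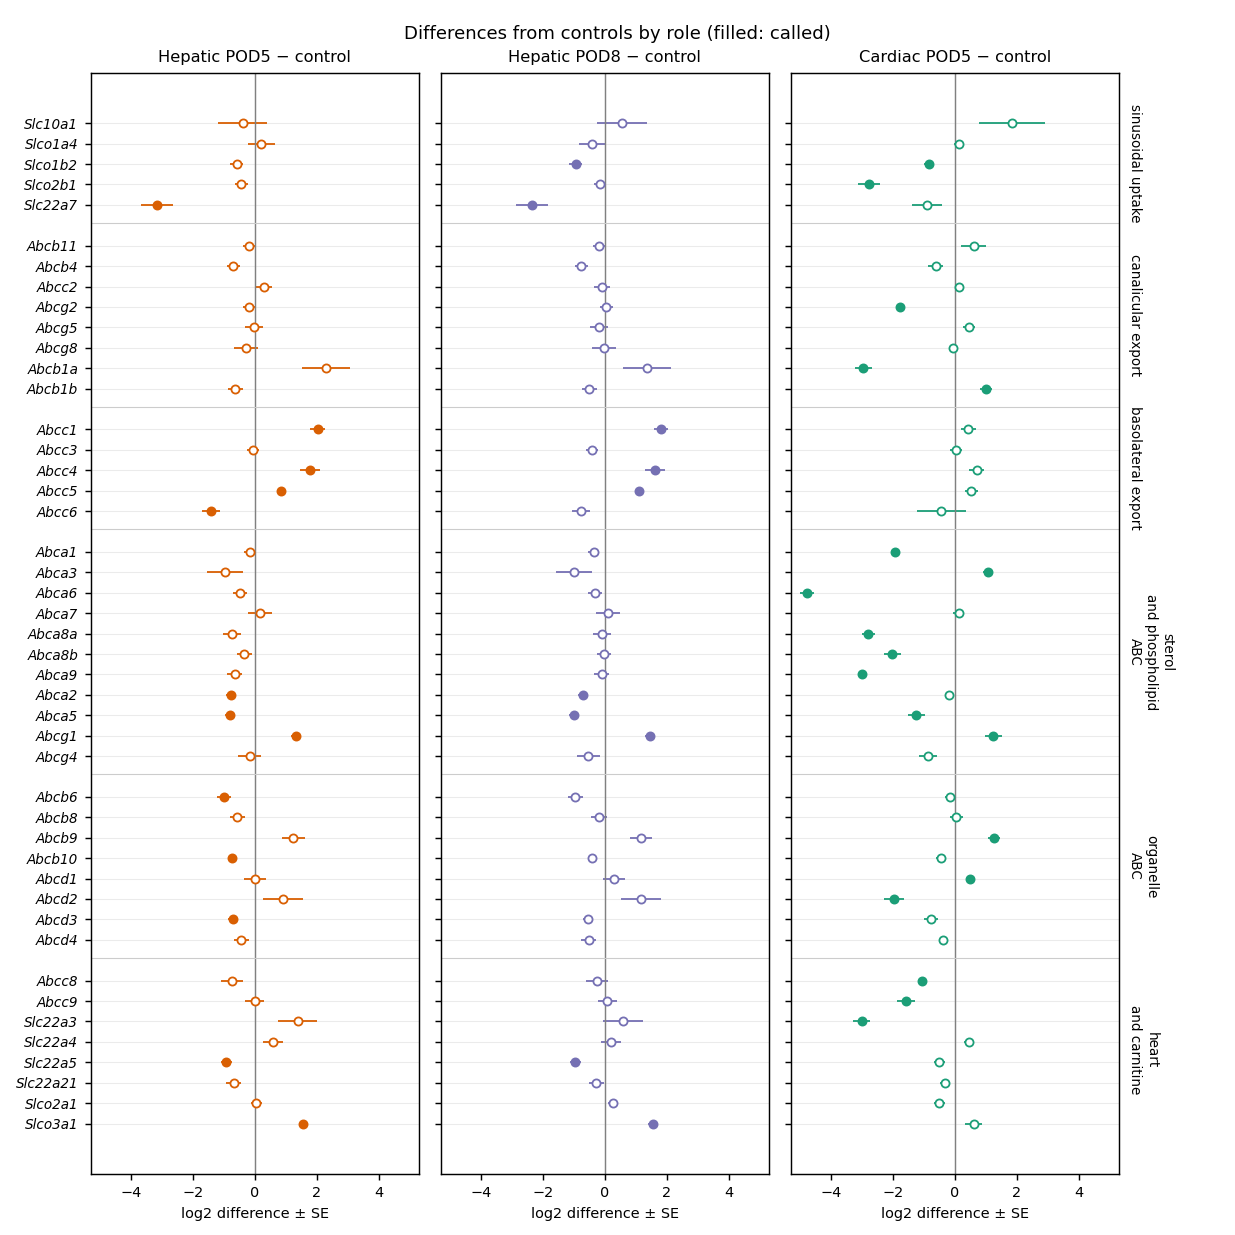
Difference from controls (log2, horizontal axis, with SE bars) of the reported members of 6 role lists (vertical axis) in hepatic POD5, hepatic POD8 and cardiac POD5 allografts. Filled points were called (adjusted P below 0.05), and open points were not. Slc22a7 lies farthest below 0 in both hepatic panels and Abca6 in the cardiac panel.

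Markers of other cells moved with the hepatic allografts. The summed intensity of 7 T cell markers was 246 to 327 in controls, 4735 to 8053 at POD5 and 4193 to 5296 at POD8, and 5 of the 7 were called higher each time, with Cd8a 7.94 ± 0.18 above controls at POD5. That of 5 macrophage markers was 11590 to 30240 in controls, 43030 to 59970 at POD5 and 59920 to 78860 at POD8, but only Marco was called higher (1.90 at POD5, 2.32 at POD8), and Cd163 was called lower at POD5 (-1.56). Hepatocyte markers summed to 422400 to 465500 in controls, 417200 to 441800 at POD5 and 387600 to 423500 at POD8, with 0 of 7 called. Stellate cell and fibroblast markers summed to 23100 to 29940 in controls, 12910 to 19780 at POD5 and 10090 to 18680 at POD8, with 1 and 2 of 5 called lower. Cholangiocyte markers summed to 3924 to 9688 in controls, 7987 to 19610 at POD5 and 9002 to 15050 at POD8, with 0 of 7 called. The part of these cells in the differences of Abcc1, Abcc4, Abcc5, Abcg1, Slco3a1 and Slco4a1 was not tested. Within the slide that held 2 controls and 2 POD8 grafts, the differences were -2.62 for Slc22a7, -1.12 for Slco1b2, 2.08 for Abcc1 and 2.89 for Slco4a1. These arrays also entered the calls, so the values are no separate evidence, and no member passed the test there.

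Calls among the genes of bile acid synthesis, its regulators and other carriers stand beside the shares of all genes. Those shares were 5.78% higher and 4.21% lower at POD5, and 4.97% higher and 2.96% lower at POD8. Of 11 synthesis genes, 1 was lower at POD5, namely Cyp7b1 of the alternative pathway (-1.70 ± 0.38, adjusted P = 0.033, limma), and none was called at POD8. Cyp7a1, the rate-limiting enzyme of bile acid synthesis, differed by 0.52 ± 0.93 and -2.09 ± 0.93 without a call. Of 11 regulators measured, Ppara was lower at POD5 (-1.25 ± 0.24, adjusted P = 0.020) and Nr1i3, the constitutive androstane receptor, at POD8 (-1.31 ± 0.23, adjusted P = 0.017). Nr1h4, which encodes FXR, differed by -0.91 ± 0.26 and -0.99 ± 0.26 (adjusted P = 0.075 and 0.066). Of 9 other carriers, 2 were higher each time, and these were Tap1 (2.15 ± 0.39 and 2.63 ± 0.39) and Tap2 (2.53 ± 0.25 and 2.32 ± 0.25), the ABC peptide transporter that loads major histocompatibility complex class I molecules.

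In the cardiac allografts at POD5, 14 members were called higher, 15.4% against 15.2% of all genes, and 20 were called lower, 22% against 15.1%. The median difference was -0.05, where that of all genes was 0.03. Groups did not overlap for 56 members, or 61.5% against 54.1% of all genes. Under scaling to the 75th percentile, the median of all genes was 0.57, higher calls made up 76.2% of all genes called against 50.1%, and the members gave 33 higher and 20 lower calls.

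Of 15 ABCA genes 8 were lower and 1 was higher in the cardiac allografts. The shares of all genes were 15.1% lower and 15.2% higher. Abca6 had levels of 6.05, 6.86 and 6.60 in controls and 1.66, 1.79 and 1.75 at POD5, where it was not above background on any array, so it was at least 4.57-fold lower (adjusted P = 0.00068, limma). Its relatives Abca9 (9.66, 9.52 and 9.40 against 6.62, 6.45 and 6.55, a difference of -2.99 ± 0.11, adjusted P = 0.00051) and Abca8a (11.64, 11.90 and 11.38 against 9.05, 8.95 and 8.52, -2.80 ± 0.20, adjusted P = 0.0014), fell too. Abca8b was lower by 2.02 ± 0.26, Abca1 by 1.92 ± 0.15 and Abca5 by 1.24 ± 0.27, expressed as sizes on the log2 scale. Abca12 (at least 4.26-fold) and Abca4 (at least 1.68-fold) were lower with no allograft array above background. The bounds for Abca6, Abca12 and Abca4 hold for the main processing only. Among the alternatives their smallest differences were -1.40, -1.08 and -0.39. The calls of Abca4 and Abca5 were each kept in 9 of 17 alternatives.

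Abca3, a lipid transporter of lamellar bodies, rose (8.84, 8.52 and 8.87 in controls, 9.77, 9.70 and 9.96 at POD5, a difference of 1.07 ± 0.14, adjusted P = 0.0054, limma). Abcg1 rose here as well, from 10.21, 9.62 and 10.47 to 11.29, 11.08 and 11.66 (1.24 ± 0.27, adjusted P = 0.024). Its call was kept in 11 of 17 alternatives.

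Of the 8 canalicular exporters 1 rose and 2 fell in the heart, and of the 6 sinusoidal uptake carriers 3 fell. Among all genes 15.2% were called higher and 15.1% lower. Abcg2 fell from 12.44, 12.48 and 12.58 to 10.75, 10.79 and 10.67 (-1.76 ± 0.09, adjusted P = 0.00070, limma). Abcb1a, the P-glycoprotein of vessel walls, fell from 6.62, 7.04 and 7.05 to 4.22, 3.38 and 4.25, where 1 of 3 arrays was above background (-2.95 ± 0.29, adjusted P = 0.0025), and Slco2b1 from 10.74, 10.86 and 10.65 to 7.63, 8.76 and 7.54 (-2.77 ± 0.35, adjusted P = 0.0049). In each of these the allografts lay wholly below the controls. Slc22a3, an organic cation carrier of the heart, was at least 2.33-fold lower (5.48, 5.79 and 5.32 in controls, none of the allograft arrays above background, adjusted P = 0.0022). That bound holds for the main processing only, as the smallest difference among the alternatives was -0.74.

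The channel subunit genes fell in the cardiac grafts. Abcc9 went from 10.39, 11.13 and 10.37 to 9.29, 8.62 and 9.20 (-1.59 ± 0.29, adjusted P = 0.014, limma) and Abcc8 from 11.32, 11.42 and 11.36 to 10.56, 10.09 and 10.28 (-1.06 ± 0.14, adjusted P = 0.0058). Slc10a6, a carrier of sulfated steroids, was lower by 1.92 ± 0.49 in size (adjusted P = 0.037). This call was kept in 8 of 17 alternatives, and was lost without any 1 of the controls. None of the 5 basolateral exporters was called, with Abcc4 at 0.70 ± 0.24 (adjusted P = 0.083) and Abcc1 at 0.43 ± 0.25.

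Among the members that rose in the heart, Slco4a1 was again the farthest from controls, with 5.45, 5.18 and 5.83 against 9.01, 9.11 and 10.00 (3.89 ± 0.33, 14.8-fold, adjusted P = 0.0018, limma). Slc22a16, a carnitine carrier, rose from 5.64, 5.59 and 5.82 to 7.46, 8.06 and 7.72 (2.06 ± 0.18, adjusted P = 0.0019). Slc22a12, the urate carrier (1.53 ± 0.20), Abcb9 (1.28 ± 0.19), Slc22a8, an organic anion carrier (1.27 ± 0.21), Abcg3 (1.08 ± 0.20) and Abcb1b (1.01 ± 0.19) were called higher too. For Slc22a17 the probes went against each other, since the brightest was called higher (0.89) and the other lower (-1.002). Its call was kept in 10 of 17 alternatives. All probes shared 1 direction for only 11 of the 15 called cardiac members with several probes. Another 4 members were called only by a probe that was not the brightest. Slc10a4, Slco1b2 and Slco6c1 were called on arrays none of which was above background and are given no fold.

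**Figure D3:**
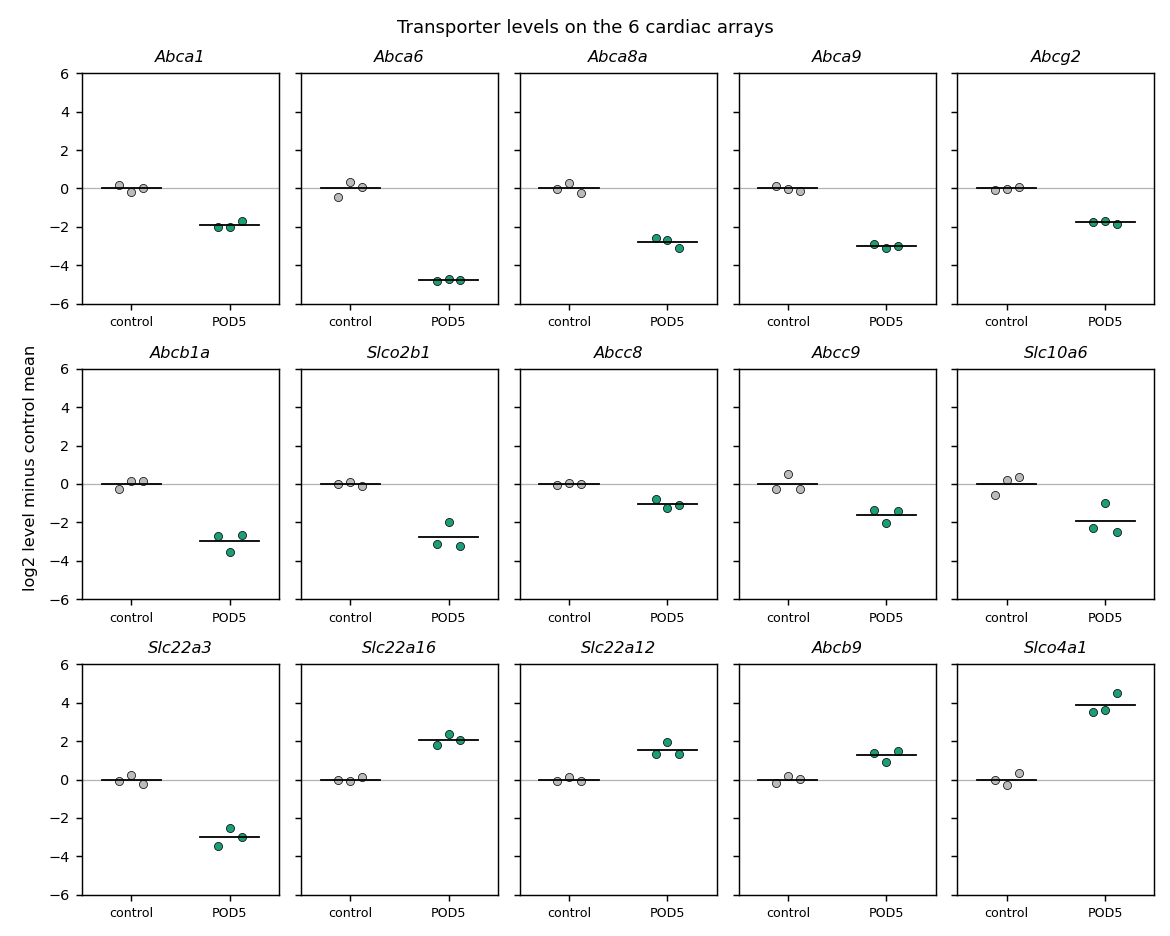
Levels of 15 transporter genes on the 6 cardiac arrays, as log2 level minus the mean of the 3 controls of the same gene (vertical axis), for controls and POD5 allografts (horizontal axis). Points are single arrays and lines are group means, and Abca6 and Slc22a3 were not above background on any allograft array. No allograft array of these genes lies within the range of the controls.

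Most endothelial markers were lower on the cardiac allografts as well, with 5 of 6 called lower (15.1% of all genes) and 1 higher (15.2%). Their summed intensity was 3368 to 5063 against 12780 to 14160. Stellate cell and fibroblast markers summed to 137400 to 194300 against 304900 to 441700, and T cell markers to 17190 to 25630 against 739 to 1108. Cardiomyocyte markers summed to 602000 to 843900 against 917600 to 1042000, with 3 of 6 lower. Their part in the cardiac differences was not tested.

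The POD5 difference of the 2 organs was compared directly in 1 fit of all 15 arrays. It differed for 22 members, or 24.2% against 18.2% of all genes, with 15 more positive in the liver (16.5% against 9.24%) and 7 more negative (7.69% against 8.92%). Without cardiac POD5 array 2 or 3, cardiac control 2 or hepatic POD5 array 1, the latter count was 4. Slc22a7 (-2.32 ± 0.69, adjusted P = 0.037, limma) was more negative in the liver, a call kept in 4 of 13 alternatives. It was above background on 1 of 6 cardiac arrays, so its cardiac difference lay near background. Abca6 (3.79 ± 0.32, adjusted P = 5.5e-05, with no cardiac allograft array above background), Abca9 (2.31 ± 0.30, adjusted P = 0.00064), Abca1 (1.82 ± 0.25, adjusted P = 0.00092), Slco2b1 (2.39 ± 0.40, adjusted P = 0.0028) and Abcg2 (1.68 ± 0.25, adjusted P = 0.0014) were lower in the heart and not called in the liver on their brightest probes. The other probe of Abca6 was called lower in the liver at POD5. Abcc1 differed from controls by more in the liver than in the heart (1.58 ± 0.36, adjusted P = 0.012). For Abcg1 (0.02 ± 0.32, adjusted P = 0.97), which rose in all 3 comparisons, no difference between the organs was detected. Slco4a1 also rose in all 3, and because no hepatic control was above background the organs could not be compared for it. Strain, recipient and slide also differed between the organs.

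**Figure D4:**
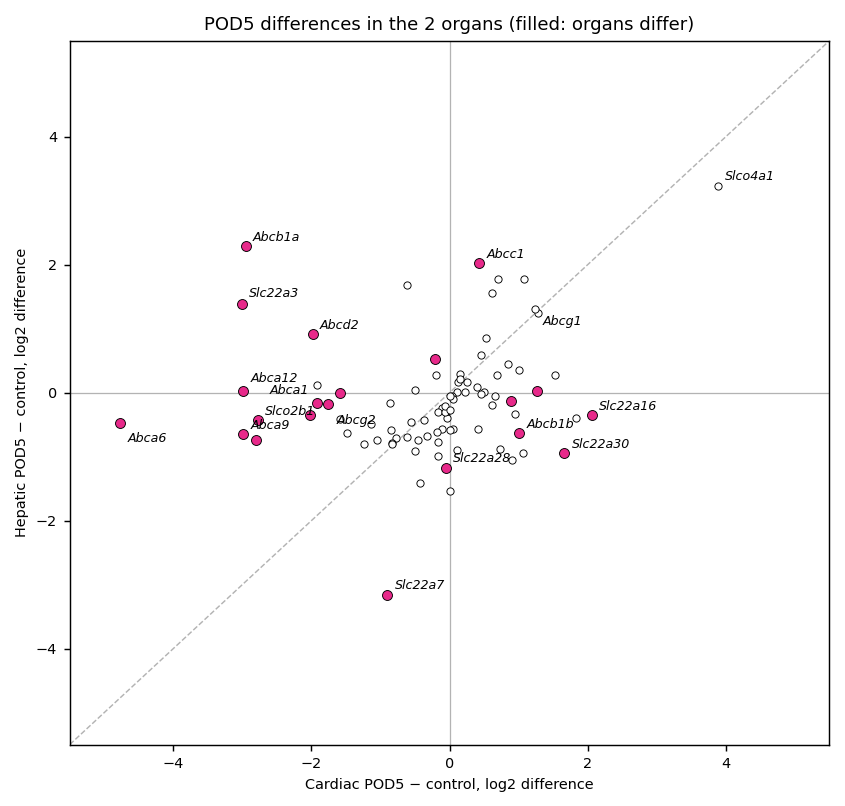
Difference from controls at POD5 of the reported members in the heart (horizontal axis, log2) and the liver (vertical axis, log2), each from the fit of its own organ. Filled points are members whose difference was called between the organs, and the dashed line marks equal differences. Slco4a1, with no hepatic control above background, lies at upper right with a hepatic value that is not a measured size, and Abca6, Abca9 and Slco2b1 lie far left near 0 on the hepatic axis.

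The controls themselves showed which organ held which member. Of the 91, 45 were higher in hepatic than in cardiac controls (49.5%, against 27.3% of all genes) and 18 were lower (19.8%, against 26%). All 6 sinusoidal uptake carriers measured were higher in the liver, as were 7 of 8 canalicular exporters. Slco1b2 was at least 14640-fold higher, Abcg5 at least 3589-fold, Slc10a1 at least 1255-fold and Abcc2 at least 904.5-fold, each with no cardiac control above background, and Abcb11 differed by 11.19 ± 0.30. Abcc8 (-6.51 ± 0.32), Slc10a6 (-5.69 ± 0.52), Abcc1 (-3.84 ± 0.26) and Slco3a1 (-3.34 ± 0.22) were higher in the heart. Abcc1, Abcc4, Abcc5, Slco3a1 and Slco4a1, which rose in the hepatic allografts, were each lower in hepatic than in cardiac controls. Abcg1, which also rose, and Abcg3, called higher at POD8 only, were not called between the controls.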

How the data were processed

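Total RNA labelled with Cy3 was measured on 15 single-colour Agilent arrays, 3 per group, with groups taken from the sample titles. Each deposited array lists processed, median and background intensity by spot, written by Agilent Feature Extraction 10.5.1.1. This software subtracted local background, detrended each array and floored dim spots. Nothing was normalized across arrays in the deposited intensity. Here outlier-flagged spots were left out, spots of a probe were averaged on the log2 scale, and arrays of an organ (all 15 for comparisons between organs) were quantile normalized, after the natural log and normalization of the study's methods. limma 3.58.1 in R 4.3.3 was fitted to all probes (41152 hepatic, 41025 cardiac), 2-sided, with Benjamini-Hochberg adjustment at 0.05. Groups were fitted without blocks. A probe was well above background on an array where at least 0.5 of its spots were so marked. Where a group had none, the bound set the bright group's mean against the lowest signal well above background. Such bounds hold for this main processing only.

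Probes were named by accession in a RefSeq table (GRCm38.p6, names only), which matched 26690 of 41174 probes (64.8%). Each member was read on its brightest probe, and 38 of 91 had several. Named were the members of role lists and up to 5 further called members per direction and comparison. The members and lists were chosen with earlier results of these data known. Array number and signal over background limit the precision. Alternatives were normalization over all arrays or over 6 arrays, scaling to the 75th percentile, normexp with an offset of 50, a filter on dim probes, outlier spots kept, a trended prior, SFC with a bin of 1000, the methods' t-test, Bonferroni, any probe, blocks for replicate number and slide, and leaving out each array. Fixed slide blocks and the within-slide fit for POD8 were chosen after seeing the data. The fits were tested on simulated data with 200 changed probes. Promoter windows came from RefSeq, and figures were drawn with matplotlib 3.10.9. A few members are counted but their own values are not reported here.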

Additional observations from a re-analysis of the deposited data

Results flagged for a closer look

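For 22 members the POD5 difference from controls itself differed between the organs, tested by the interaction term of a fit of all 15 arrays (limma, Benjamini-Hochberg). Values given are the hepatic minus the cardiac log2 difference. Among the carriers, it was -2.45 for Slc22a30, -2.34 for Slc22a16, -2.32 for Slc22a7, -1.25 for Slc22a8, -1.09 for Slc22a28 and -1.003 for Slc22a17, whose probes went in opposite directions in the heart. It was 0.75 for Slc10a7, 2.39 for Slco2b1 and 4.20 for Slc22a3. Among the multidrug pumps, Abcb1b gave -1.65, Abcg2 1.68 and Abcb1a 5.32, with Abcb1a above background on no hepatic control array. Abcc1 gave 1.58, the channel subunit gene Abcc9 1.61 and the peroxisomal Abcd2 2.83. For the ABCA genes the values were 1.64 (Abca8b), 1.82 (Abca1), 2.13 (Abca8a), 2.31 (Abca9), 2.87 (Abca12) and 3.79 (Abca6). Several of these values rest on groups at background and are no measured size. Slc22a28 was above background on 0 of 6 cardiac arrays, and Slc22a7 and Slc22a30 on 1 of 6. Abca12 was above background on no array of the liver and on no cardiac allograft array, and Abca6 and Abcd2 on no cardiac allograft array. Slc22a3 was above background on no hepatic control and no cardiac allograft array. Of 13 alternatives, the call was kept in 3 for Slc10a7, 4 for Slc22a7 and 5 for Slc22a8. It was kept in 6 for Slc22a28 and Abcd2, in 8 for Abcc9 and in all 13 for the others named here.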

How the results depend on the processing

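Counts of members called are given as higher and lower. Hepatic POD5 calls (6 and 12) became 4 and 2 from only the 6 arrays compared, 1 and 1 by SFC, 1 and 0 by the methods' t-test after Benjamini-Hochberg, 1 and 0 by Bonferroni, and 6 and 3 with slide as a random block. Hepatic POD8 calls (7 and 7) became 5 and 4, 1 and 2, 3 and 1, 1 and 0, and 7 and 11 in the same order, and 5 and 2 with slide as a fixed block. Within the slide that held both groups they were 0 and 0. SFC gave 0 and 1 between POD8 and POD5. Cardiac calls (14 and 20) became 1 and 3 by SFC and 0 and 1 by Bonferroni. Scaling to the 75th percentile gave 8 and 27, 8 and 25, and 33 and 20 in these comparisons, and 16 and 31 for the organ difference (15 and 7). Its share of higher calls among all genes called for that difference was 17.4% against 50.9%, and between the controls 71.4% against 51.3%. Under it Slco1b2 in the heart (0.30) and Slc22a20 between controls (0.59) reversed. The cause was not tested. No member called in a hepatic comparison reversed. Normexp, the filter on dim probes, outlier spots kept and the trended prior left every count of calls within 1.5 times.

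Leaving out 1 array at a time gave 5 to 9 higher and 4 to 15 lower at hepatic POD5, 5 to 7 and 1 to 7 at POD8, 0 and 0 between POD8 and POD5, 10 to 17 and 15 to 22 in the heart, 12 to 16 and 4 to 10 for the organ difference, and 39 to 44 and 16 to 19 between controls. With replicate number as a block, the counts were 6 and 4 at hepatic POD5, 5 and 1 at POD8, 0 and 0 between them, and 11 and 15 in the heart. Same-numbered arrays did not deviate together (correlations of -0.342 to 0.191), so the numbers were not taken as pairing.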
